A study of Mus musculus with 4 samples.

Results

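The 10 genes of fatty acid synthesis and desaturation described here were followed in mouse lungs before birth: the desaturases *Scd1* and *Scd2*, the synthesis enzymes *Acly*, *Acaca*, *Fasn* and *Me1*, the elongases *Elovl1* and *Elovl6*, the acyl-CoA synthetase *Acsl4* and the transcription factor *Srebf1*. These 10 genes of the 45706 in the deposited table, all of them among the 18763 genes tested (5 or more counts per lung on average), were chosen by name with the difference between the genotypes already known. Their genotype values are therefore given as a description and not as a test of the genes. As a ratio between the genotypes, the largest of these differences was that of *Scd1*. It was at a mean of 47.0 CPM in the mutant lungs against 153 CPM in the wild-type lungs. CPM are read counts scaled to the sequencing depth of each lung. They were taken after TMM normalization, which scales each lung to the bulk of its genes. *Scd2*, *Fasn*, *Srebf1* and *Acly* were lower in both mutant lungs by smaller proportions, and *Elovl1* and *Elovl6* overlapped between the genotypes.

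Left lung lobes of C57BL/6 mice at embryonic day 17 (E17) were compared by RNA-seq, 2 from wild-type mice (*Myh10+/+*) and 2 from mice homozygous for the L458R allele of *Myh10* (here *Myh10-/-*). *Myh10* encodes the heavy chain of non-muscle myosin II-B, a motor protein of the actin cytoskeleton. The allele came from a screen with the mutagen ENU and changes a residue of the motor domain in every cell of the embryo. It is therefore a missense allele and not a deletion, and no lung received a treatment. The paper reports strongly reduced MYH10 protein in newborn homozygous lungs, without a significant change of the mRNA. Combined with a null allele it gave the same lung phenotype, and the paper treats it as a loss of function. The comparison addressed which transcripts differ in the lung when this motor is altered at the saccular stage, when the distal airways widen before birth.

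Fatty acid synthesis builds lipid from citrate. ATP citrate lyase cuts citrate to acetyl-CoA, acetyl-CoA carboxylase makes malonyl-CoA, and fatty acid synthase joins these units to palmitate with NADPH that malic enzyme helps to supply. Elongases then lengthen the chain, stearoyl-CoA desaturases insert a double bond, and acyl-CoA synthetases activate free fatty acids for phospholipid assembly. Many of these genes are targets of sterol regulatory element-binding protein 1, the product of *Srebf1*. In the late fetal lung, alveolar type 2 (AT2) cells use the pathway to make the palmitate-rich phosphatidylcholine of surfactant.

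The total count on genes ran from 19116971 to 32055306 per lung, and lungs of the same genotype differed by more than counting error. *Myh10* itself was at 505 and 504 CPM in wild-type lungs and 539 and 513 CPM in mutant lungs, and a missense allele need not alter its mRNA, so this does not check the labels. *Xist*, transcribed from the inactive X chromosome, was at 3914 and 1.84 CPM in *Myh10+/+* lungs 1 and 2 and at 4.10 and 4455 CPM in *Myh10-/-* lungs 1 and 2. The Y-linked *Ddx3y* had the opposite pattern at 0.436 and 181 CPM against 198 and 0.0932 CPM, so each genotype held 1 lung with high *Xist*. AT2 markers were abundant in every lung, with *Sftpc* (surfactant protein C) between 3874 and 5812 CPM. In the fit across all genes (edgeR's quasi-likelihood test, Benjamini-Hochberg adjusted p under 0.05), 252 of 18763 genes were lower and 56 higher in *Myh10-/-* lungs. The p-values measure only the spread between these 4 lungs.

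*Scd1* and *Scd2* encode stearoyl-CoA desaturases that introduce the first double bond into palmitoyl- and stearoyl-CoA, and they are neighbours on chromosome 19. On GRCm38, *Scd1* (ENSMUSG00000037071) lies at chr19:44394455-44407879 on the minus strand and *Scd2* (ENSMUSG00000025203) at chr19:44293674-44306864 on the plus strand. Their coding sequences of 1065 and 1074 bases are close copies, with 962 of 1065 aligned bases (90.3%) identical, so the sequences decide whether reads can be assigned to one or the other. Of 917 aligned coding windows of 75 bases, the read length, 79 were identical in both genes, and the median window differed at 4 bases. A window of exon 4, identical in *Scd1* (chr19:44401812-44401886, minus strand) and *Scd2* (chr19:44299621-44299695, plus strand), is shown first, because a read from it cannot be told apart. The capitals mark the codons of a histidine box, a His-x-x-His-His motif of the catalytic centre, at residues 153 to 157 of *Scd1*. The next pair is a window of exon 2 with the median number of differences, at chr19:44406560-44406634 (minus strand) in *Scd1* and chr19:44295039-44295113 (plus strand) in *Scd2*, and its capitals mark the differing bases. All are read from the GENCODE M21 transcripts on GRCm38.
Scd1 and Scd2, exon 4: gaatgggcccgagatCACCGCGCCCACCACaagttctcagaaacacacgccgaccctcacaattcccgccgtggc
Scd1, exon 2: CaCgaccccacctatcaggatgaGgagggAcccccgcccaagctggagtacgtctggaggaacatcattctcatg
Scd2, exon 2: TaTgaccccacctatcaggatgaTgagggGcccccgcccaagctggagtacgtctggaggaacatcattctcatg

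Over the whole transcripts, 3.24% of the *Scd1* windows and 1.80% of the *Scd2* windows of that length occurred in another gene. Most reads of either gene could therefore be assigned, and the authors left out reads that aligned to several regions.

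*Scd1* was at 164 and 142 CPM in wild-type lungs and at 36.2 and 57.7 CPM in mutant lungs (3767, 2698, 1008 and 1858 reads). Both mutant lungs lay well below both wild-type lungs, and the log2 fold change was -1.70 (SE 0.15), or 0.308 of the wild-type level. The mutant lungs also differed from each other by 1.59-fold, against 1.16-fold between the wild-type lungs, and *Myh10-/-* lung 1 was the lowest. Among the lungs with high *Xist*, *Scd1* was at 164 CPM in the *Myh10+/+* and 57.7 CPM in the *Myh10-/-* lung, and among those with low *Xist* at 142 and 36.2 CPM.

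*Scd2*, a desaturase prominent in brain and in newborn tissues, was at 1695 and 1519 CPM in wild-type lungs and at 1155 and 1281 CPM in mutant lungs. Both mutant lungs were again lower, with a log2 fold change of -0.40 (SE 0.10), a smaller difference than that of *Scd1*.

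Because the 2 genes were unequally lower, the share of *Scd1* in the reads of both differed between the lungs. It was 8.84% (95% Wilson interval 8.58 to 9.11) and 8.53% (8.23 to 8.84) in wild-type lungs, and 3.04% (2.86 to 3.23) and 4.31% (4.12 to 4.51) in mutant lungs. The intervals cover counting error only. In each of the 4 lungs *Scd2* supplied most of the reads, and the intervals of the mutant lungs stayed below those of the wild-type lungs. The remaining mouse paralogs were scarce. *Scd3* was at 0.873 and 0.630 CPM against 0.395 and 0.683 CPM (log2 fold change -0.47, SE 0.41), and *Scd4* at 1.53 and 1.68 CPM against 1.51 and 1.77 CPM (0.04, SE 0.26). Neither passed the test, and both overlapped between the genotypes.

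**Figure D1:**
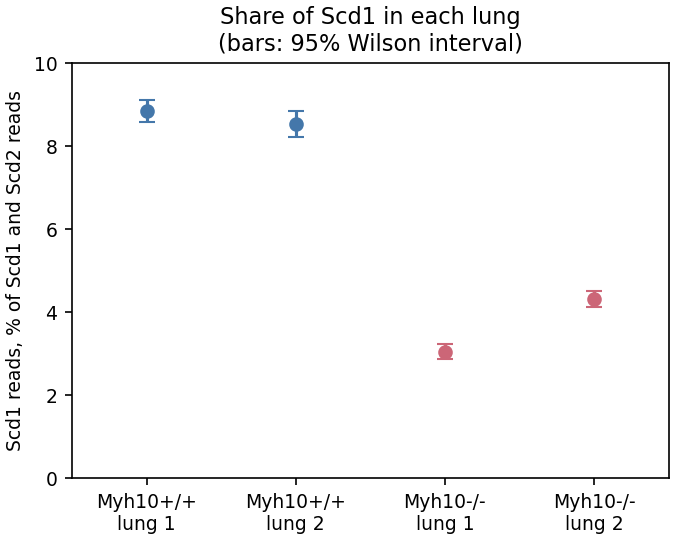
Reads of Scd1 as a percentage of the reads of Scd1 and Scd2 together (y axis) in each of the 4 lungs (x axis), with points for the share and bars for its 95% Wilson interval, which covers counting error only. The Myh10+/+ lungs sit at 8.84% and 8.53% and mutant lungs at 3.04% and 4.31%.

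*Fasn* encodes fatty acid synthase, the enzyme that assembles palmitate, and lies on chromosome 11 (ENSMUSG00000025153, chr11:120805846-120824547, minus strand). It was at 417 and 385 CPM in wild-type lungs and at 288 and 289 CPM in mutant lungs. The mutant lungs were nearly equal and both were lower, with a log2 fold change of -0.48 (SE 0.05). This was the second largest difference of the 10 genes, and *Fasn* shared no window of 75 bases with another gene.

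*Acly* encodes ATP citrate lyase, which supplies cytosolic acetyl-CoA (ENSMUSG00000020917, chr11:100476353-100528000, minus strand). Its 262 and 251 CPM in wild-type lungs stood against 224 and 218 CPM in mutant lungs. The log2 fold change was -0.21 (SE 0.05), small but without overlap.

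*Acaca* encodes acetyl-CoA carboxylase 1, which makes malonyl-CoA (ENSMUSG00000020532, chr11:84129672-84401651, plus strand). It was at 48.9 and 41.4 CPM in wild-type lungs and at 41.0 and 41.1 CPM in mutant lungs, with a log2 fold change of -0.14 (SE 0.09). The mutant lungs were lower, but the second wild-type lung was within 1 CPM of them, and 47.4% of the *Acaca* windows of 75 bases also occurred in *Gm5182*, so reads from that stretch could not be assigned.

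*Me1* encodes cytosolic malic enzyme, a source of NADPH (ENSMUSG00000032418, chr9:86581371-86695953, minus strand). It was at 33.5 and 38.3 CPM in wild-type lungs and at 31.1 and 32.4 CPM in mutant lungs (log2 fold change -0.17, SE 0.08). Both mutant lungs were lower, but *Myh10+/+* lung 1 lay nearer to them than to *Myh10+/+* lung 2, and 23.1% of the *Me1* windows occurred in other genes.

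The elongases were the genes that differed least. *Elovl1*, which extends saturated and monounsaturated very long chains (ENSMUSG00000006390, chr4:118428093-118432953, plus strand), was at 68.8 and 62.1 CPM in wild-type lungs and at 62.2 and 61.4 CPM in mutant lungs, with a log2 fold change of -0.08 (SE 0.07). *Elovl6*, which extends palmitate to stearate, the chain that *Scd1* and *Scd2* desaturate (ENSMUSG00000041220, chr3:129532355-129638495, plus strand), was at 23.4 and 21.3 CPM against 24.3 and 21.9 CPM (0.04, SE 0.08). *Elovl6* was the only member of the 10 with a log2 fold change above 0, and that sign turned with a correction for GC content and length (-0.024).

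*Acsl4*, an acyl-CoA synthetase that prefers arachidonate, lies on the X chromosome (ENSMUSG00000031278, chrX:142317993-142390535, minus strand). It was at 114 and 110 CPM in wild-type lungs and at 96.9 and 100 CPM in mutant lungs (log2 fold change -0.19, SE 0.05). In each genotype the lung with high *Xist* had the higher value, and the mutant lungs lay below both wild-type lungs.

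*Srebf1* encodes the transcription factors SREBP-1a and SREBP-1c, which activate lipogenic genes (ENSMUSG00000020538, chr11:60199089-60222581, minus strand). It was at 128 and 130 CPM in wild-type lungs and at 99.6 and 110 CPM in mutant lungs, with a log2 fold change of -0.30 (SE 0.06). The groups did not overlap, and counts per gene cannot separate the 2 isoforms, which start from different promoters. *Srebf1* overlaps *Rai1* on the opposite strand by 109 bp, and *Elovl1*, *Elovl6* and *Me1* overlap opposite-strand genes by 53, 34 and 30 bp. Whether the counting used strand is not given in the sources used here.

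**Figure D2:**
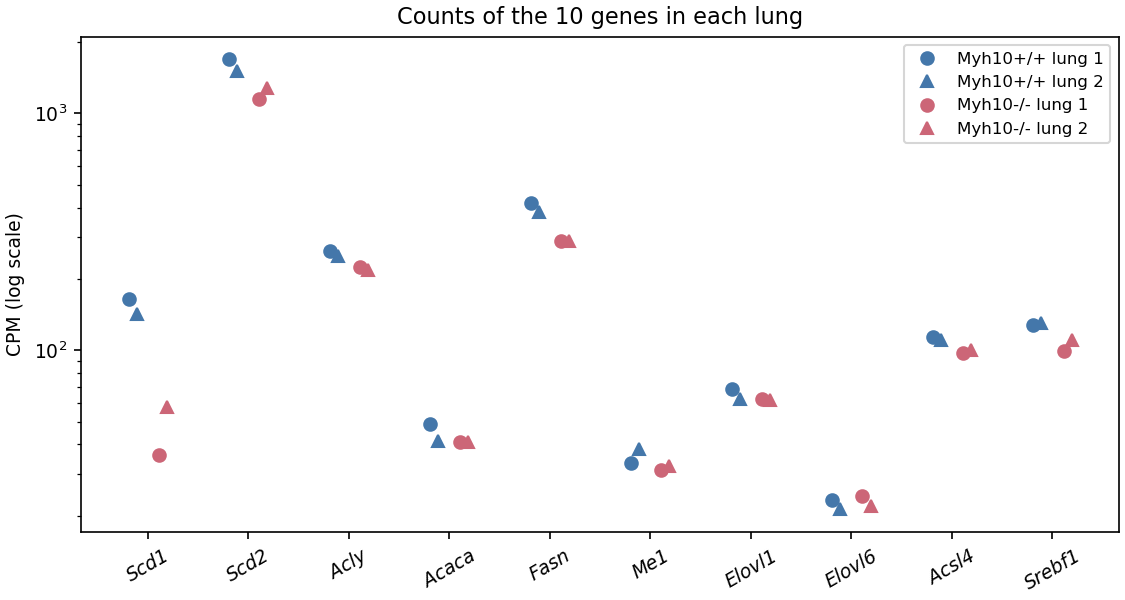
Normalised counts of the 10 genes in CPM on a log axis (y) for each lung, with circles for lung 1 and triangles for lung 2 of each genotype. The Myh10-/- lungs lie below both Myh10+/+ lungs for 8 of the 10 genes, with the widest gap for Scd1, and overlap them for Elovl1 and Elovl6.

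Counted together, both mutant lungs lay below both wild-type lungs for 8 of the 10 genes and above them for none. Over all tested genes that pattern held for 24.3% in the lower and 23.9% in the higher direction. In the fit across all genes 4 of the 10 were called lower (*Scd1*, *Fasn*, *Acly* and *Srebf1*) and 0 higher, against 1.34% lower and 0.298% higher over all genes. At an unadjusted p under 0.05 edgeR counted 6 of the 10, all lower, against 16.5% of all genes in either direction, and the Wald test of DESeq2 called 5, adding *Scd2*. Since the genes were chosen with this contrast known, nothing is read from these shares. The median log2 fold change of the 10 was -0.20, beside 0.00 over all tested genes.

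*Srebf1* and *Acly* were no longer called without *Myh10+/+* lung 1 or without *Myh10+/+* lung 2, which left 2 called genes in each case. *Acly* was also lost with library totals and with a block that pairs the lungs crosswise by number, chosen after seeing the data, and *Scd1* with the robust dispersion setting of edgeR.

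**Figure D3:**
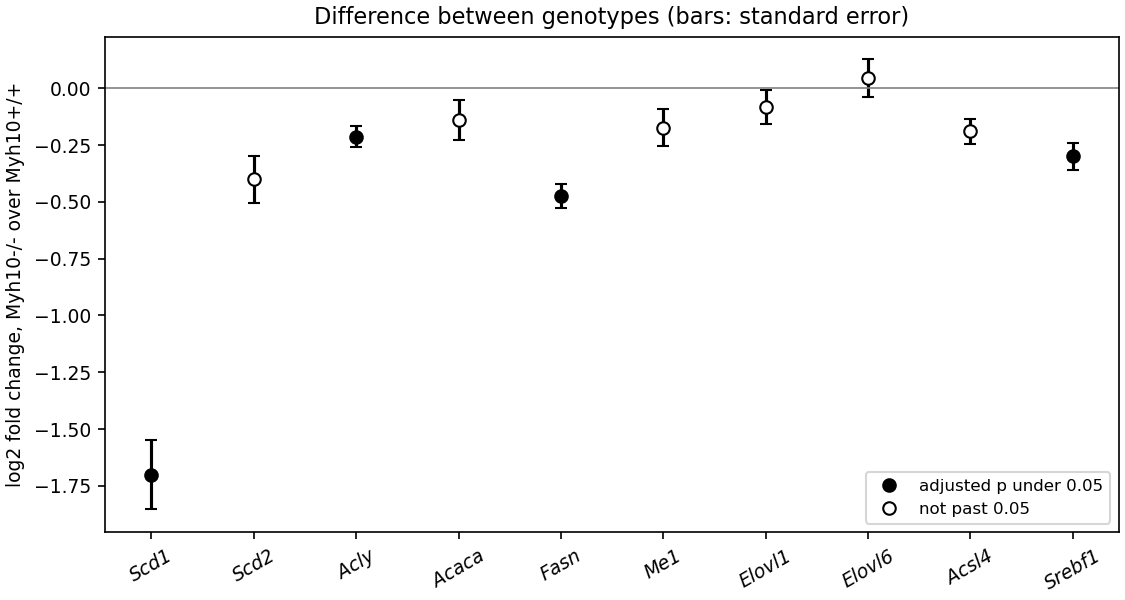
The log2 fold change of each of the 10 genes, Myh10-/- over Myh10+/+ (y axis), with bars for the standard error and filled points for an edgeR adjusted p under 0.05. Scd1 stands at -1.70, the next is Fasn at -0.48, and Elovl6 lies closest to and just above 0 at 0.04.

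Between genes, levels were compared as CPM per kilobase of exon (mean ± SD, n = 2 lungs). In *Myh10+/+* lungs *Scd2* was the highest at 294 ± 22.7, followed by *Acly* at 48.6 ± 1.48, *Fasn* at 36.7 ± 2.06 and *Scd1* at 31.3 ± 3.29. *Elovl1* (24.0 ± 1.74), *Srebf1* (22.9 ± 0.256) and *Acsl4* (20.8 ± 0.515) came next, and *Me1* (9.32 ± 0.882), *Elovl6* (3.47 ± 0.234) and *Acaca* (2.65 ± 0.310) were the lowest. *Elovl1* and *Srebf1* were the only neighbours in this order whose lungs overlapped. In *Myh10-/-* lungs *Scd1* was at 9.60 ± 3.11 and moved from rank 4 to rank 7, below *Elovl1*, *Srebf1* and *Acsl4*, while the other 9 genes kept their order among themselves. Its 2 mutant lungs, at 7.40 and 11.8, overlapped the 8.09 and 8.42 of *Me1*. With the longest transcript as the length, *Scd1* and *Elovl1* changed places, as did *Elovl6* and *Acaca*. Both lengths include sequence shared with other genes, from which reads could not be assigned, and were not corrected for it. Shared windows made up 47.4% for *Acaca*, 23.1% for *Me1* and 2.28% for *Elovl6*. The levels of *Acaca* and *Me1* may therefore be too low in both genotypes, and their places in the order are uncertain.

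The promoters of the lipogenic genes were read from RefSeq (GRCm38.p6) as the 250 bases before each start. This gave 12 windows for 8 of the 10 genes (*Acaca*, *Acly*, *Acsl4*, *Elovl1*, *Elovl6*, *Fasn*, *Me1* and *Srebf1*). Some windows lie inside the GENCODE span of their gene and need not be its main promoter. Among them are the window of *Acaca* (chr11:84195188-84195437) and a window of *Me1* (chr9:86687278-86687527). They were searched on both strands for a sterol regulatory element (TCACNCCAC), a CCAAT box (CCAAT), which NF-Y binds, an E-box (CACGTG) and a GC box (GGGCGG), which Sp1 binds. The windows of *Fasn* (chr11:120824548-120824797, minus strand), *Acly* (chr11:100528001-100528250, minus strand) and *Elovl1* (chr4:118427843-118428092, plus strand) are shown, the first and second for genes that were lower in the mutant lungs and the last for one that overlapped. Capitals mark the motif matches.
Fasn: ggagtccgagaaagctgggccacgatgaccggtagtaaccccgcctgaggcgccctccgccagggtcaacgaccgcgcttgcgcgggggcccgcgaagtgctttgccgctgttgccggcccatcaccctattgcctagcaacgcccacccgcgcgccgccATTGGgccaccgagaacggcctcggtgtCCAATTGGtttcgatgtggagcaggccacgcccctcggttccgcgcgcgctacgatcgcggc
Acly: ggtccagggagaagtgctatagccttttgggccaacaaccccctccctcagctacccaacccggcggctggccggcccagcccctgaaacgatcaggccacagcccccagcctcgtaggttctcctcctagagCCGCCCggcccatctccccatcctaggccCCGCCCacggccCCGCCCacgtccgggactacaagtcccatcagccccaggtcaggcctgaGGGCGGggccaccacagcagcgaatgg
Elovl1: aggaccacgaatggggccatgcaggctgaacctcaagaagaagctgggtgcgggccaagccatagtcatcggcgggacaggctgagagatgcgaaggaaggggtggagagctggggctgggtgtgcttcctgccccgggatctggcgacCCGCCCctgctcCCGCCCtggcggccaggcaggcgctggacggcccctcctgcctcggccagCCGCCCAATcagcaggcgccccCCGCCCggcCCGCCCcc

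Counted from the start to the first base of the match, *Fasn* held CCAAT boxes at -90, -62 and -59, of which those at -62 and -59 overlap on opposite strands, and no GC box of these letters. *Acly* held GC boxes at -117, -88, -76 and -27 and no CCAAT box. The *Elovl1* window shown held 1 CCAAT box at -35, overlapping a GC box at -39, and 5 GC boxes, and the second window of *Elovl1*, not shown, held 2 more GC boxes. The GC box was present in 7 of the 12 windows (58.3%), beside 32.7% of all 32851 windows, and the CCAAT box in 5 (41.7%), beside 33.8%. The searched sterol regulatory element was in 0 of the 12 windows and 1.05% of all windows, and the E-box in 0 and 6.02%. A match is a string of letters only, and a missing one says nothing of binding outside or inside this window.

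No other gene of the synthesis pathway passed the test. Of 32 further synthesis genes 30 were tested, and edgeR called 0 of them in either direction, with 11 at an unadjusted p under 0.05 (10 of them lower) and 0 by DESeq2. Their median log2 fold change was -0.11, and both mutant lungs were below both wild-type lungs for 14 and above for 1. Over all tested genes these patterns held for 24.3% and 23.9%, and 16.5% had an unadjusted p under 0.05 in edgeR. *Acss2*, which makes acetyl-CoA from acetate, was at 27.5 and 30.03 CPM in wild-type lungs and 23.4 and 23.7 CPM in mutant lungs (-0.29, SE 0.07, edgeR adjusted p = 0.080). *Slc25a1*, the citrate carrier that feeds *Acly*, was at 39.0 and 39.3 CPM against 33.1 and 33.1 CPM (-0.24, SE 0.07, edgeR adjusted p = 0.13). *Acacb*, the mitochondrial acetyl-CoA carboxylase, had a log2 fold change of -0.26 (SE 0.10), and *Mid1ip1*, which promotes carboxylase assembly, of -0.23 (SE 0.07). *Thrsp*, a relative of *Mid1ip1*, was under 1 CPM in every lung.

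Among the remaining elongation, desaturation and activation genes, *Elovl5*, which elongates polyunsaturated chains, was at 171 and 169 CPM against 145 and 155 CPM (-0.19, SE 0.05, edgeR adjusted p = 0.096). The desaturases of polyunsaturated synthesis stayed close between the genotypes, with log2 fold changes of -0.09 (SE 0.06) for *Fads1* and 0.03 (SE 0.08) for *Fads2*. Of the acyl-CoA synthetases, *Acsl1* was at -0.23 (SE 0.07), *Acsl5* at -0.18 (SE 0.05) and *Acsl3* at -0.06 (SE 0.07). None of these passed the test, and 23 of the 30 tested genes of this *list* had a log2 fold change below 0.

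Of 23 tested *regulators* of lipid synthesis 1 was called, *Insig1*, and it was lower. Over all tested genes 1.34% were called lower and 0.298% higher. *Insig1* retains the SREBP and SCAP complex in the endoplasmic reticulum when sterols are abundant and is itself an SREBP target. It was at 87.5 and 87.5 CPM in wild-type lungs and at 64.5 and 72.3 CPM in mutant lungs, and it fell by 0.35 on the log2 scale (SE 0.07, edgeR adjusted p = 0.030). The call was lost without *Myh10+/+* lung 1 (edgeR adjusted p = 0.077, the highest of the alternatives, which began at 0.00018).

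*Srebf2*, the regulator of cholesterol synthesis, was at 192 and 182 CPM against 164 and 160 CPM (-0.21, SE 0.05, edgeR adjusted p = 0.058). *Scap*, the escort of the SREBPs, was at -0.10 (SE 0.07) and *Insig2* at -0.04 (SE 0.08). *Mlxipl*, which encodes the glucose-responsive factor ChREBP, was scarce at 4.67 and 5.67 CPM against 6.36 and 6.40 CPM, higher in both mutant lungs without passing the test (0.31, SE 0.15, edgeR adjusted p = 0.33). The liver X receptor genes *Nr1h3* and *Nr1h2* were at -0.16 (SE 0.08) and -0.01 (SE 0.07). The median over the *regulators* was -0.06, with both mutant lungs lower for 11 genes and higher for 2. The shares over all tested genes were 24.3% lower and 23.9% higher.

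Of 25 tested uptake and esterification genes 1 was called, beside 1.34% called lower and 0.298% called higher over all tested genes. *Fabp5*, a cytosolic fatty acid carrier, was at 73.7 and 67.7 CPM in wild-type lungs and at 46.5 and 53.2 CPM in mutant lungs, and it fell by 0.50 on the log2 scale (SE 0.08, edgeR adjusted p = 0.014). That *list* had a median of -0.11, with both mutant lungs lower for 16 genes and higher for 3. The shares over all tested genes were 24.3% and 23.9%. Of 25 genes of beta-oxidation, which degrades fatty acids, edgeR and DESeq2 called 0, and the median was -0.11. At an unadjusted p under 0.05 edgeR counted 6 of them, beside 16.5% of all tested genes. Both mutant lungs were lower for 12 and higher for 0. *Cpt1a*, which commits fatty acids to mitochondrial oxidation, was at 67.3 and 67.2 CPM against 62.5 and 62.0 CPM (-0.11, SE 0.07). Of 23 genes of cholesterol synthesis and uptake edgeR called 0, with 7 at an unadjusted p under 0.05. DESeq2 called 1, the median was -0.11, and both mutant lungs were lower for 11 genes and higher for 1. The medians of these lists lay between that of the 10 genes and that of all tested genes.

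**Figure D4:**
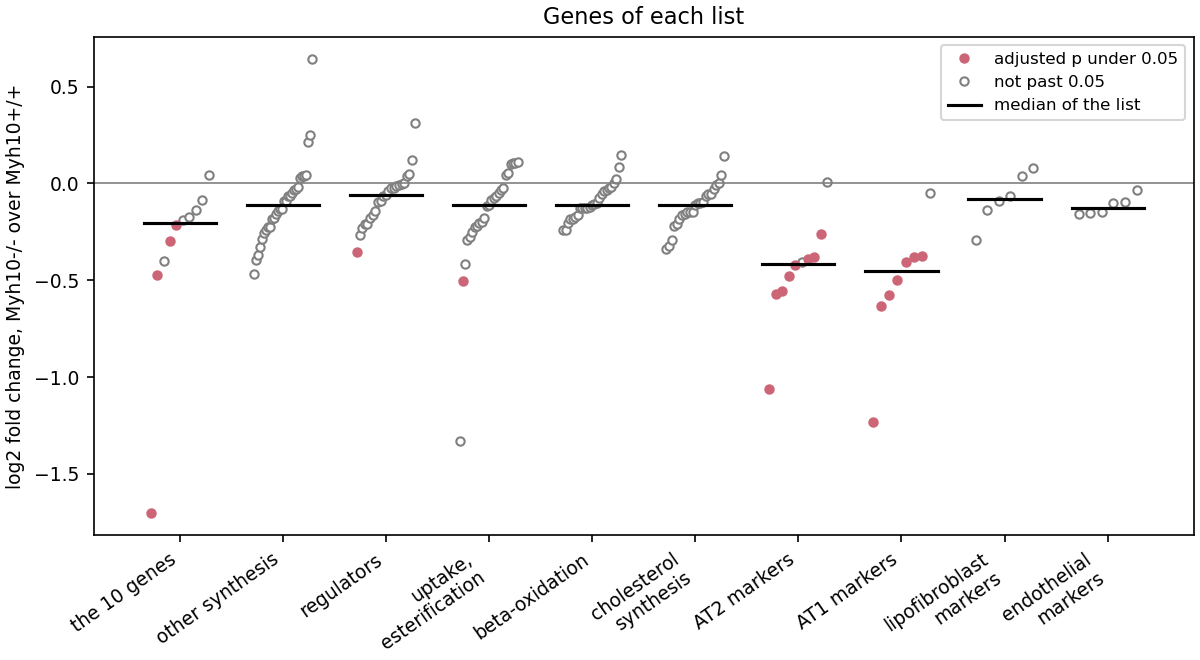
The log2 fold change, Myh10-/- over Myh10+/+ (y axis), of every tested gene of each list (x axis), with filled points for an edgeR adjusted p under 0.05 and a line at the median of each list. The medians are -0.20 for the 10 genes, between -0.06 and -0.11 for the other lipid lists, and -0.42 and -0.45 for AT2 and AT1 markers, most of which were called lower, and no lipofibroblast or endothelial marker was called.

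Markers of the alveolar epithelium were lower in the same lungs. The summed level of 10 AT2 markers was 9532 and 9063 CPM in wild-type lungs and 6386 and 7531 CPM in mutant lungs, and 8 of the 10 were called lower, with log2 fold changes between -1.06 (*Sftpd*, a surfactant collectin) and -0.26 (*Abca3*, the lipid transporter of lamellar bodies). *Sftpc* and *Etv5* were not called. The 8 markers of alveolar type 1 (AT1) cells summed to 3529 and 3406 CPM against 2594 and 2939 CPM. Of these 8, 7 were called lower. Over all tested genes 1.34% were called lower and 0.298% higher. For both sums *Myh10-/-* lung 1 was the lowest lung, as it was for *Scd1*, but not for the AT2 markers *Abca3* and *Etv5*. The largest term of the AT2 sum was *Sftpc*, at 5812 and 5627 CPM against 3874 and 4748 CPM. That of the AT1 sum was *Cav1*, which was not called and overlapped between the genotypes. The log2 fold change of *Scd1* lay below that of every AT2 marker. Every other gene of the 10 except *Elovl6* lay within the wide range of these markers, which reached 0.01 for *Etv5*. In these counts from whole lobes, fewer cells of a type and less RNA per cell cannot be told apart. The paper reports the other direction for AT2 cells, at a stage that its main text does not give for this measurement. It describes more AT2 cells in mutant lungs and raised *Sftpa*, *Sftpc* and *Abca3*, but decreased LAMP3 and AT1 markers. By electron microscopy at a later embryonic stage it found much glycogen and fewer lamellar bodies in mutant AT2 cells. The paper takes this as failed differentiation. The part of the alveolar markers in the values of the 10 genes was not tested.

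Of 6 pan-epithelial markers, at sums of 1515 and 1527 CPM against 1326 and 1366 CPM, 3 were called lower (*Krt8*, *Krt19* and *Cdh1*). *Nkx2-1* and *Epcam* overlapped between the genotypes, with log2 fold changes of 0.02 (SE 0.05) and -0.04 (SE 0.05). The 6 lipofibroblast markers, for the lipid-laden interstitial fibroblasts beside AT2 cells, summed to 835 and 846 CPM against 788 and 833 CPM, with 0 called by edgeR. The 6 endothelial markers summed to 1534 and 1485 CPM against 1420 and 1359 CPM, also with 0 called. Of 6 macrophage markers (300 and 278 CPM against 219 and 255 CPM) only *Lyz2* was called lower. *Lyz2* also supplied most of that sum, at 186 and 173 CPM against 117 and 148 CPM. Both mutant lungs were lower for 3 of the 6 and higher for 0, beside 24.3% and 23.9% of all tested genes. Of 6 erythroid markers (4257 and 5345 CPM against 3757 and 4272 CPM) 2 were called lower. Of 5 tested cardiac markers (207 and 267 CPM against 166 and 152 CPM) 4 were called lower. The shares over all tested genes were 1.34% called lower and 0.298% called higher. Adipocytes, which express *Scd1* strongly, left almost no trace, since their 8 markers, *Adipoq*, *Plin1* and *Lep* among them, had at most 5 reads each per lung and a summed level of 0.180 to 0.497 CPM. The part of these other cell types in the values was not tested either.

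By distance of the centred log2 CPM over the 4 lungs, the 5 genes above a floor of 10 CPM on average that lay nearest to *Scd1* were *Lyz1* (0.326), *Scgb1a1* (0.431), *Aqp5* (0.460), *Chil1* (0.504) and *Sftpd* (0.711). *Lyz1* encodes a lysozyme and was at 53.8 and 49.8 CPM in wild-type lungs and 12.6 and 25.4 CPM in mutant lungs. *Scgb1a1*, the secretoglobin of club cells, was at 52.9 and 58.6 CPM against 15.1 and 28.2 CPM. *Aqp5*, a water channel of AT1 cells, was at 29.1 and 27.4 CPM against 8.55 and 15.3 CPM. All 5 were low in the mutant lungs and lowest in *Myh10-/-* lung 1, with log2 fold changes of -1.44, -1.36, -1.23, -2.05 and -1.06 in that order. That pattern follows from the choice of these 5 genes by likeness to *Scd1* over the same 4 lungs, so it is not a separate result. The likeness is a description.

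Of the 10 genes 4 lie on chromosome 11, which carries *Myh10*, at 8.47 Mb (*Srebf1*), 15.3 Mb (*Acaca*), 31.7 Mb (*Acly*) and 52.0 Mb (*Fasn*) from it. The median log2 fold change of the 1533 tested genes on this chromosome was -0.02, with 28 called lower and 1 higher. Over all 18763 tested genes 252 were called lower (1.34%) and 56 higher (0.298%). The part of the chromosome in the values of these genes was not tested.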

How the data were processed

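Left lung lobes of 2 *Myh10+/+* and 2 *Myh10-/-* (L458R homozygous) C57BL/6 mice at E17 were analysed, with genotypes taken from the labels. The deposited values are raw counts, the number of reads that the authors assigned to each Ensembl gene, without normalization. The libraries were stranded and sequenced from a single end. After trimming, the authors aligned the reads to GRCm38 with STAR 2.4.0a and counted them over exons with featureCounts 1.5.1. Only reads assigned to a single gene and a single locus entered the counts. The annotation release and the strand setting of the counting are not given in the sources used here. Per lung, totals of 23156026 and 19116971 (wild type) and of 27573824 and 32055306 (mutant) were reached, and the number of lungs limits the precision.

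The 18763 genes averaging 5 counts or more were fitted with edgeR 4.0.16 (TMM, glmQLFit, glmQLFTest) in R 4.3.3, with Benjamini-Hochberg adjustment, a threshold of 0.05 and no covariate. CPM uses TMM-scaled totals, and a standard error is the log2 fold change over the square root of F. Lengths and positions came from GENCODE M21, which held 45143 of the 45706 identifiers, and promoters from RefSeq GRCm38.p6. The script was tested on simulated data.

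The 10 genes and the lists (further synthesis genes, *regulators*, uptake and esterification, beta-oxidation, cholesterol synthesis and cell type markers) were chosen with earlier results of these data known. Named genes are the 10 genes, up to 6 called genes of each *list*, a fixed set of pathway genes and sample checks, and the 5 genes nearest to *Scd1*. The marker lists were cut further, and not all of their called genes within that limit are named. Of the marker lists, *Sftpc*, *Etv5*, *Abca3* and the adipocyte genes were named after their values were seen.

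Alternatives were DESeq2 size factors, library totals, the DESeq2 1.42.0 Wald test, robust dispersions, no filter, filterByExpr, a loess offset on GC content and gene length (span 0.3), the replicate number as a block, block and correction together, and leaving out each lung. The labels number the lungs 1 and 2 in each genotype and give no pairing. A crossed block was added after the data had been seen.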

Additional observations from a re-analysis of the deposited data

How the results depend on the processing

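*Fasn* was called lower under all alternatives run, and *Acaca*, *Me1*, *Elovl1* and *Elovl6* under none. *Scd2* was called by the DESeq2 Wald test, with robust dispersions, without a filter, with the GC and length correction, with the crossed block and without *Myh10-/-* lung 2, and *Acsl4* with the correction, alone or with the block. The genes called in all numbered 308, and 474 with robust dispersions, 1162 without a filter and 523 with the correction. The reported fit gave 252 lower and 56 higher genes, 81.8% lower. The split was 233 and 111 (67.7% lower) with library totals, 339 and 135 (71.5%) with robust dispersions, 688 and 474 (59.2%) without a filter, 466 and 244 (65.6%) with the replicate block, and 875 and 768 (53.3%) without *Myh10-/-* lung 2.

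Of further synthesis genes, 0 in the reported fit, 3 were called without a filter and 4 with the correction. Of *regulators*, 1 in the reported fit, 2 were called with robust dispersions, 3 without a filter and 2 with the correction. Of uptake and esterification genes, 1 in the reported fit, 5 were called without a filter and 2 with the correction. Cholesterol genes, 0 in the reported fit, were 1 with DESeq2, 2 with robust dispersions, 4 without a filter and 2 with the correction. The median of the 10 genes was -0.24 with the correction.

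With the replicate block 710 genes were called, with 3 synthesis, 2 regulator, 5 uptake and 2 cholesterol genes. With the replicate block and the correction together these were 667, 4, 2, 3 and 2, with 1 beta-oxidation gene and a median of -0.24 for the 10 genes. The numbers are labels only, and deviations of same-numbered lungs had a correlation of -0.20 across genes (-0.02 without chromosomes X and Y). The crossed block called 415 genes, 1 of them for cholesterol.

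Leaving out a lung leaves 1 in a genotype, which is assumed to vary like the others. The genes called then ranged from 206 (without *Myh10+/+* lung 2) to 1643 (without *Myh10-/-* lung 2), *members* of the 10 from 2 to 5, synthesis genes from 0 to 4, *regulators* from 0 to 4, uptake genes from 1 to 7, beta-oxidation genes from 0 to 2 and cholesterol genes from 0 to 3, with the highest count of each without *Myh10-/-* lung 2. The median of the 10 genes ranged from -0.25 to -0.20.

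Signs turned for values near 0 or low counts. *Nr1h2* was at 0.014 with library totals and 0.041 with the correction, alone or with the block, and *Elovl6* at -0.024 with the correction and -0.020 with both. With a lung left out, *Nr1h2* ranged from -0.066 to 0.054, *Elovl6* from -0.025 to 0.12, *Scd4* from -0.080 to 0.15, *Thrsp* from -0.97 to 0.82, *Fads2* from -0.053 to 0.11 and *Insig2* from -0.10 to 0.022. The causes were not tested. With 2 lungs a genotype, small differences in *Acaca*, *Me1* and the elongases could not be resolved.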
